A study of Homo sapiens with 19 samples.

Results

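The transcripts described here are the mRNAs of 10 human genes coding for centrosome, spindle pole and dynein proteins: PCNT, AKAP9, CEP350, NIN, ASPM, NUMA1, HMMR, DYNC1H1, BICD2 and CCDC88C. They were chosen by symbol, as genes whose mRNAs are known or thought likely to be localized while they are translated. The choice was made with earlier results of these data known. They are 10 of the 58051 human genes in the count tables, and all 10 were among the 15940 genes that passed the filter on low counts.

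The libraries come from untreated K562 cells, an established human erythroleukaemia line, and each is from bulk RNA to which synthetic yeast transcripts had been added. The 5 groups are the nuclear wash without rRNA depletion (3 libraries) and, each in 4 libraries depleted of rRNA, the nuclear wash, the nucleus, the cytoplasm and the whole cell. The labels do not define how the nuclear wash was made, and they name no separate cultures. The p-values therefore describe how these libraries vary, and that variation may be technical. Replicates 1 and 2 carry column names with the prefix 1, and replicates 3 and 4 carry the prefix 2; the labels do not say what the prefix marks.

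The centrosome is the main microtubule organizing centre of an animal cell: a pair of centrioles surrounded by pericentriolar material, whose scaffold proteins hold the gamma-tubulin rings from which microtubules grow. Cytoplasmic dynein walks along microtubules toward this centre, with dynactin and an adaptor that couples it to cargo. Some mRNAs that code for centrosome proteins, among them PCNT and ASPM, are known to reach the centrosome or spindle poles with their polysomes, and the transport of PCNT polysomes depends on dynein.

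Exon counts per depleted library ranged from 1373755 to 7955415, and those of the undepleted wash from 923464 to 1801293. Of 8 K562 markers, among them HBG2, GATA1 and TFRC, all 8 had counts in all 16 depleted libraries. Of 14 markers of lymphoid, epithelial and fibroblast or endothelial cells, 5 passed the filter and 1, KRT14, was at 0 in every library. The summed level of the epithelial markers, nearly all of it EPCAM, ranged from 125 to 180.3 CPM in the wash, 34.0 to 54.2 CPM in the nucleus and 48.2 to 66.7 CPM in the cytoplasm. That of the fibroblast or endothelial markers ranged from 69.1 to 77.1 CPM in the wash, 22.8 to 26.1 CPM in the nucleus and 17.1 to 18.8 CPM in the cytoplasm, and that of the lymphoid markers from 7.32 to 13.7 CPM in the wash, 3.11 to 5.84 CPM in the nucleus and 5.16 to 7.59 CPM in the cytoplasm. The part of other cells in any result below was not tested. In bulk libraries, fewer cells holding a transcript and less of it per cell cannot be told apart.

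Values are exon read counts in CPM, that is relative to each library's size, with TMM factors, which set the typical gene to no change. Log2 fold changes with their standard errors (SE) and adjusted p come from the quasi-likelihood test of edgeR over all 15940 genes, with a call wherever the adjusted p fell under 0.05. All contrasts share libraries, so they are not independent of one another. Per kb of annotated exon, HMMR had the highest level in whole cells at 73.8 ± 6.41 CPM per kb (SD, n = 4), followed by ASPM at 60.5 ± 13.2 CPM per kb. CEP350, AKAP9, DYNC1H1, PCNT and NUMA1 lay between 12.5 and 21.5 CPM per kb, and BICD2 averaged 6.61, CCDC88C 2.00 and NIN 1.55 CPM per kb. The exon length is the union over all annotated isoforms, so the level per kb is understated where isoforms carry exons that K562 does not use. NIN and CCDC88C rest on the fewest reads, with 34 to 147 and 43 to 182 exon counts per depleted library.

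In the nuclear wash, 7 of the 10 mRNAs were higher than in the cytoplasm, against 22.8% of all tested genes, and 0 were lower, against 21.4%. Because earlier results of these data were known when the members were chosen, these counts describe the members and are no independent test. The members' median log2 fold change was 0.87, beside 0.05 over all tested genes. DYNC1H1, ASPM, CEP350 and PCNT had log2 fold changes above 1, AKAP9, NUMA1 and BICD2 were called with smaller ones, and NIN, CCDC88C and HMMR were not called. Against the nucleus the members divided: 3 were higher in the wash (36.7% of all genes), 2 were lower (35.4%) and 5 were not called, with a median of -0.14 beside 0.06 over all genes. In the nucleus against the cytoplasm, 5 were higher (39.3%) and 2 lower (37.5%), with a median of 0.39 beside 0.03. The shares of members near the background in the contrasts with the nucleus are no result about these genes as a set, and the genes are therefore described one by one.

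**Figure D1:**
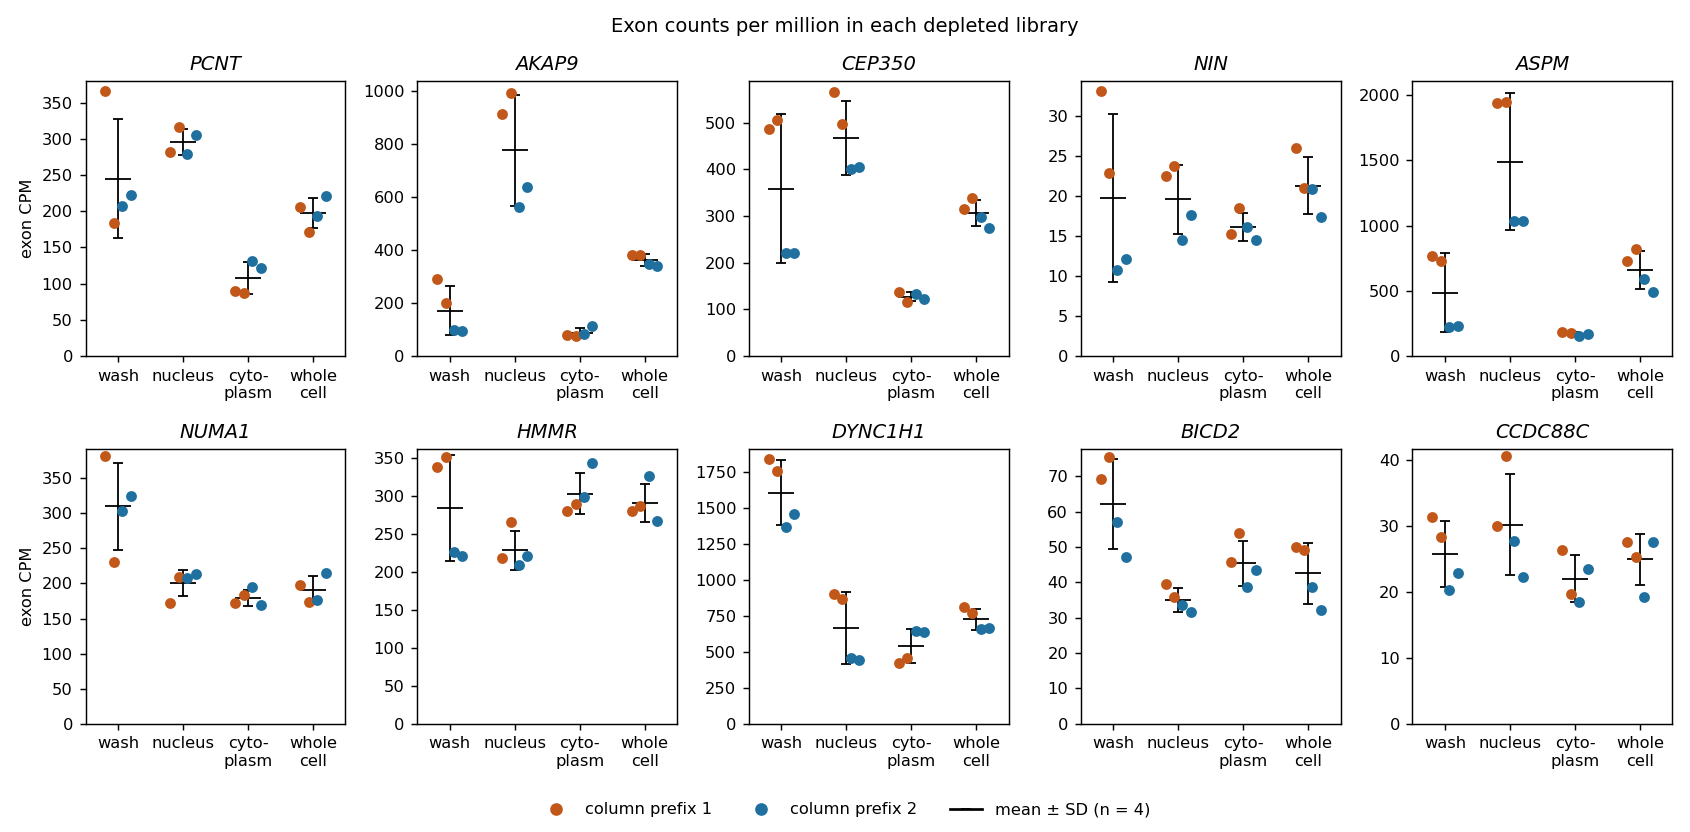
Exon CPM (linear axis from 0, a separate scale for each gene) of the 10 mRNAs in each depleted library, for nuclear wash, nucleus, cytoplasm and whole cell from left to right; points are libraries coloured by column prefix, and bars are the mean ± SD (n = 4). DYNC1H1 is highest in the wash, at 1373 to 1842 CPM, whereas AKAP9 and ASPM are highest in the nucleus, at 563 to 993 and 1035 to 1947 CPM.

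PCNT (ENSG00000160299, chr21:46324122-46445769 on GRCh38, plus strand) codes for pericentrin, the scaffold of the pericentriolar material that anchors gamma-tubulin rings. Its level was 366, 184, 207 and 222 CPM in the wash, 282, 316, 279 and 305 CPM in the nucleus, 89.9, 87.5, 131 and 121 CPM in the cytoplasm and 205, 171, 194 and 220.4 CPM in whole cells, each in the order of replicates 1 to 4. All wash and all nuclear libraries lay above all cytoplasmic ones, while wash and nucleus overlapped because wash replicate 1 was the highest of all. PCNT was higher in the wash than in the cytoplasm by a log2 fold change of 1.18 ± 0.178 (SE; adjusted p = 1.98e-05, edgeR) and higher in the nucleus than in the cytoplasm by 1.46 ± 0.18 (adjusted p = 2.47e-07). The wash and the nucleus differed by -0.28 ± 0.176, which was not called (adjusted p = 0.162); without wash replicate 1 the value was -0.50 with an adjusted p of 0.0042 in edgeR.

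AKAP9 (ENSG00000127914, chr7:91940867-92110673, plus strand) codes for a large anchoring protein, also known as AKAP450, that holds protein kinase A and microtubule nucleators at the centrosome and the cis-Golgi. It had 290.3, 199.7, 99.7 and 94.3 CPM in the wash, 914, 993, 563 and 637 CPM in the nucleus, 77.8, 76.9, 81.2 and 112 CPM in the cytoplasm and 380.1, 381, 346 and 339.8 CPM in whole cells. The nuclear libraries stood above all others, and wash replicates 3 and 4 lay within the cytoplasmic range. AKAP9 was higher in the nucleus than in the cytoplasm by 3.16 ± 0.282 (adjusted p = 2.08e-09, edgeR), which was the largest fold change of any member in that contrast. In the wash it was lower than in the nucleus by a log2 fold change of -2.19 ± 0.272 (adjusted p = 4.5e-07), and higher than in the cytoplasm by 0.97 ± 0.266 (adjusted p = 0.00565, edgeR). Within prefix 1 the difference between wash and cytoplasm was 1.65, and within prefix 2 it was 0.01 and not called (adjusted p = 0.975, edgeR).

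CEP350 (ENSG00000135837, chr1:179954738-180114880, plus strand) codes for a centriolar protein that takes part in anchoring microtubules and keeping centrioles stable. It had 487, 507, 221 and 221 CPM in the wash, 567, 498, 401 and 405 CPM in the nucleus, 137, 116, 132 and 122 CPM in the cytoplasm and 316, 339.6, 298 and 274 CPM in whole cells. Wash replicates 1 and 2 reached the nuclear range, replicates 3 and 4 fell below every nuclear library, and all 4 exceeded every cytoplasmic library. The fold change over the cytoplasm was 1.50 ± 0.22 in the wash (adjusted p = 1.42e-05, edgeR) and 1.88 ± 0.222 in the nucleus (adjusted p = 1.34e-07). The wash differed from the nucleus by -0.38 ± 0.215, not called (adjusted p = 0.114, edgeR). With the replicate number as a block the value was -0.44 and called (adjusted p = 0.0135), and it was also called without wash replicate 1 (-0.53) or wash replicate 2 (-0.57).

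NIN (ENSG00000100503, chr14:50719763-50831121, minus strand) codes for ninein, a protein of the subdistal appendages that anchors microtubules and can act as a dynein adaptor. It was the scarcest member, with 33.1, 22.9, 10.7 and 12.1 CPM in the wash, 22.4, 23.7, 14.4 and 17.6 CPM in the nucleus, 15.3, 18.5, 16.03 and 14.5 CPM in the cytoplasm and 26.0, 20.9, 20.8 and 17.3 CPM in whole cells. The wash libraries spanned the range of all the other groups. None of the fraction contrasts was called: the log2 fold change was 0.24 ± 0.255 for wash over cytoplasm (adjusted p = 0.463, edgeR), -0.03 ± 0.271 for wash over nucleus (adjusted p = 0.927) and 0.27 ± 0.268 for nucleus over cytoplasm (adjusted p = 0.363).

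ASPM (ENSG00000066279, chr1:197084128-197146694, minus strand) codes for a protein that binds microtubule minus ends at mitotic spindle poles. It had 763, 729, 225 and 227 CPM in the wash, 1943, 1947, 1039 and 1035 CPM in the nucleus, 180.3, 176, 156 and 171 CPM in the cytoplasm and 729.8, 819, 594 and 493 CPM in whole cells. No nuclear library overlapped any other group, and the wash lay between nucleus and cytoplasm without touching either. In the wash ASPM was higher than in the cytoplasm by 1.51 ± 0.327 (adjusted p = 0.000845, edgeR) and lower than in the nucleus by a log2 fold change of -1.62 ± 0.326 (adjusted p = 0.000165). The nucleus exceeded the cytoplasm by 3.13 ± 0.346 (adjusted p = 5.16e-08, edgeR).

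NUMA1 (ENSG00000137497, chr11:72002864-72080693, minus strand) codes for a nuclear mitotic apparatus protein, which in mitosis tethers dynein and dynactin to spindle poles and the cell cortex. It had 381, 230.1, 303 and 325 CPM in the wash, 172, 209, 208 and 213 CPM in the nucleus, 172, 184, 194 and 169.6 CPM in the cytoplasm and 198, 174, 177 and 216 CPM in whole cells. Every wash library was above every library of the other groups, which overlapped with one another. The wash was higher than the cytoplasm by 0.78 ± 0.134 (adjusted p = 8.39e-05, edgeR) and than the nucleus by 0.62 ± 0.135 (adjusted p = 0.000338). Nucleus and cytoplasm differed by 0.16 ± 0.135, not called (adjusted p = 0.293, edgeR), although DESeq2 called a difference of 0.30 (adjusted p = 0.0468). NUMA1 shares 2760 exon bases with AP002490.1, 675 with IL18BP and 363 with LRTOMT, all on the opposite strand, and the strand setting of the counting is not given in the sources used here, so reads of these genes may be included.

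HMMR (ENSG00000072571, chr5:163460203-163491945, plus strand) codes for a microtubule-associated protein of the spindle poles, also known as RHAMM. It had 338, 351, 226 and 220.5 CPM in the wash, 218, 265, 209 and 221 CPM in the nucleus, 281, 290.0, 299 and 343 CPM in the cytoplasm and 281, 287, 326 and 268 CPM in whole cells. Wash replicates 1 and 2 lay at or near the top of the cytoplasmic range and replicates 3 and 4 below it. HMMR was lower in the nucleus than in the cytoplasm by a log2 fold change of -0.41 ± 0.146 (adjusted p = 0.0152, edgeR), a call that DESeq2 did not make (-0.27, adjusted p = 0.123) and that is lost without nucleus replicate 3 (adjusted p = 0.0637). The wash differed from the cytoplasm by -0.09 ± 0.145 (adjusted p = 0.621, edgeR) and from the nucleus by 0.31 ± 0.147 (adjusted p = 0.0599), neither called. The difference from the nucleus was called with the replicate block (0.31, adjusted p = 0.0401, edgeR) and without nucleus replicate 2, wash replicate 3 or wash replicate 4 (0.38, 0.44 and 0.45). It was also called with gene-body counts (0.96, adjusted p = 3.05e-06), without the low-count filter (0.55, adjusted p = 0.000666) and within prefix 1 (0.51, adjusted p = 0.00398). Without a composition factor it was called the other way (-0.35, adjusted p = 0.0454, edgeR). HMMR shares 113 exon bases with HMMR-AS1 on the opposite strand.

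DYNC1H1 (ENSG00000197102, chr14:101964510-102056443, plus strand) codes for the motor subunit of cytoplasmic dynein, its heavy chain. It had 1842, 1757, 1373 and 1463 CPM in the wash, 902, 871, 459 and 444 CPM in the nucleus, 422, 459, 648 and 638 CPM in the cytoplasm and 811, 768, 659.6 and 669 CPM in whole cells. The lowest wash library lay above the highest library of any other group, and nucleus and cytoplasm overlapped. The wash exceeded the cytoplasm by 1.57 ± 0.209 (adjusted p = 4.52e-06, edgeR) and the nucleus by 1.27 ± 0.208 (adjusted p = 1.68e-05). Nucleus against cytoplasm gave 0.30 ± 0.205, not called (adjusted p = 0.182, edgeR), but called without nucleus replicate 3 or 4 (0.47 and 0.48). Within prefix 1 the nucleus was higher by 1.00 (adjusted p = 5.97e-06), and within prefix 2 it was lower by a log2 fold change of -0.50 (adjusted p = 0.000138). DYNC1H1 shares 1033 exon bases with the pseudogene AL118558.1 on the opposite strand.

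BICD2 (ENSG00000185963, chr9:92711363-92764812, minus strand) codes for a coiled-coil adaptor that couples dynein and dynactin to RAB6 vesicles and, before mitosis, to the nuclear pore. It had 69.2, 75.5, 57.1 and 47.0 CPM in the wash, 39.4, 35.7, 33.5 and 31.6 CPM in the nucleus, 45.8, 53.9, 38.5 and 43.4 CPM in the cytoplasm and 50.1, 49.1, 38.5 and 32.3 CPM in whole cells. The wash stood above the nucleus without overlap and overlapped with the cytoplasm. It was higher than the nucleus by 0.82 ± 0.168 (adjusted p = 0.000182, edgeR) and higher than the cytoplasm by 0.45 ± 0.157 (adjusted p = 0.0243). The call over the cytoplasm is lost without wash replicate 1, wash replicate 2, cytoplasm replicate 3 or cytoplasm replicate 4, with adjusted p of 0.0618 to 0.112 in edgeR. It is also lost with gene-body counts (0.19, adjusted p = 0.314), without a composition factor (0.40, adjusted p = 0.0526) and within prefix 2 (0.35, adjusted p = 0.0695). The nucleus was lower than the cytoplasm by a log2 fold change of -0.37 ± 0.167 (adjusted p = 0.0484), which DESeq2 did not call (-0.24, adjusted p = 0.257) and which is lost on leaving out any nuclear library or cytoplasm replicate 1 or 2.

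CCDC88C (ENSG00000015133, chr14:91271323-91417844, minus strand) codes for DAPLE, a HOOK-related coiled-coil protein known for binding Dishevelled in Wnt signalling. It had 31.3, 28.3, 20.3 and 22.9 CPM in the wash, 30.0, 40.6, 27.7 and 22.3 CPM in the nucleus, 26.4, 19.6, 18.5 and 23.4 CPM in the cytoplasm and 27.5, 25.3, 19.3 and 27.5 CPM in whole cells, and all groups overlapped. CCDC88C was higher in the nucleus than in the cytoplasm by 0.47 ± 0.185 (adjusted p = 0.025, edgeR), a call lost without nucleus replicate 2, cytoplasm replicate 2 or cytoplasm replicate 3. The wash differed from the cytoplasm by 0.22 ± 0.179 (adjusted p = 0.339) and from the nucleus by -0.25 ± 0.186 (adjusted p = 0.225, edgeR), neither called.

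**Figure D2:**
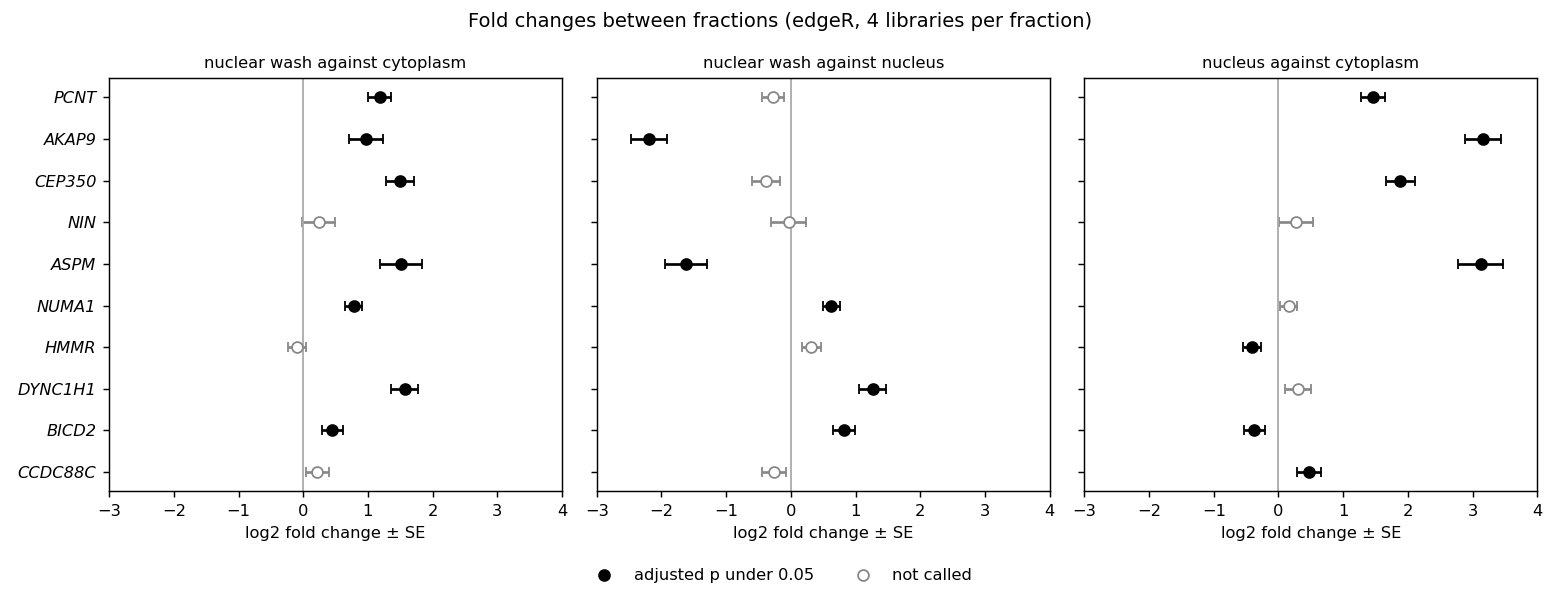
Log2 fold change ± SE of the 10 mRNAs for nuclear wash against cytoplasm, nuclear wash against nucleus and nucleus against cytoplasm (edgeR, 4 libraries per fraction); filled points were called at an adjusted p under 0.05. DYNC1H1, BICD2 and NUMA1 lie to the right of 0 in both wash contrasts. All other members change side between them, and of these only AKAP9 and ASPM were called in both.

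DYNC1H1 and NUMA1 were the members whose wash level was called above that of the cytoplasm and of the nucleus alike. This joint call uses whichever of the pair of p-values is larger, and it was made for 5.6% of all tested genes in that direction and 1.17% in the other. The smaller of both log2 fold changes was 1.27 for DYNC1H1 (adjusted p = 0.000222, edgeR) and 0.62 for NUMA1 (adjusted p = 0.00365). BICD2 was higher in both contrasts one at a time, yet its joint adjusted p was 0.109. It was called with the replicate block (adjusted p = 0.00713), without the low-count filter (0.0205), without wash replicate 4 (0.0365) and within prefix 1 (0.0428), all by edgeR. The joint call of NUMA1 was lost within prefix 1 (0.67, adjusted p = 0.0702, edgeR), and without a composition factor neither NUMA1 nor DYNC1H1 was called (0.61 for DYNC1H1, adjusted p = 0.0501). The other 7 members were not called, and 0 were lower than both.

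Set against whole cells, the wash was higher for 3 members (14.6% of all genes) and lower for 1 (19.7%). DYNC1H1 was higher by 1.15 ± 0.207 (adjusted p = 0.000237, edgeR), NUMA1 by 0.70 ± 0.134 (adjusted p = 0.000446) and BICD2 by 0.56 ± 0.16 (adjusted p = 0.0107), and AKAP9 was lower with -1.09 ± 0.264 (adjusted p = 0.00317). With the replicate block, 2 members were lower in the wash, against 24.3% of all genes in that fit, as ASPM was then called at -0.59 (adjusted p = 0.0127), against -0.44 without the block (adjusted p = 0.299). The nucleus was higher than whole cells for 4 members (25.9%), namely ASPM (1.18), AKAP9 (1.10), CEP350 (0.61) and PCNT (0.58), and lower for 1 (29%), HMMR, at -0.35 with an adjusted p of 0.0497 in edgeR. Leaving out 1 library at a time ended the call of HMMR in 6 of 8 cases and that of CEP350 in 4 of 8. The cytoplasm was lower than whole cells for the same 4 genes (27.6%), AKAP9 at -2.06, ASPM at -1.95, CEP350 at -1.27 and PCNT at -0.88, and higher for 0 members (22.3%).

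The fold changes between fractions differed between prefix 1 and prefix 2 for several of these mRNAs, and levels outside the wash moved as well. In the cytoplasm, DYNC1H1 had 422 and 459 CPM in replicates 1 and 2, and 648 and 638 CPM in replicates 3 and 4. The fold change of wash over cytoplasm differed between the prefixes for 6 of the 10 members by the interaction term of edgeR, against 1.82% of all tested genes. For AKAP9 it was 1.65 within prefix 1 and 0.01 within prefix 2 (adjusted p of the difference = 0.000143, edgeR), and for ASPM 2.06 and 0.47 (adjusted p = 1.42e-05). CEP350 had 1.97 within prefix 1 and 0.79 within prefix 2, and DYNC1H1 had 2.03 and 1.14, so that these genes and ASPM were called higher in the wash within each prefix. HMMR had 0.27 within prefix 1 and -0.52 within prefix 2, where it was called lower (adjusted p = 0.000767, edgeR). NIN had 0.67, called higher, within prefix 1 and -0.43, not called, within prefix 2. Its difference was called just under the threshold (adjusted p = 0.0496, edgeR), on 59 to 147 exon counts per depleted wash library. NUMA1 had 0.77 within prefix 1 and 0.79 within prefix 2, the closest pair of the 10. The differences of PCNT (1.62 and 0.77), BICD2 (0.53 and 0.35) and CCDC88C (0.37 and 0.04) were not called.

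**Figure D3:**
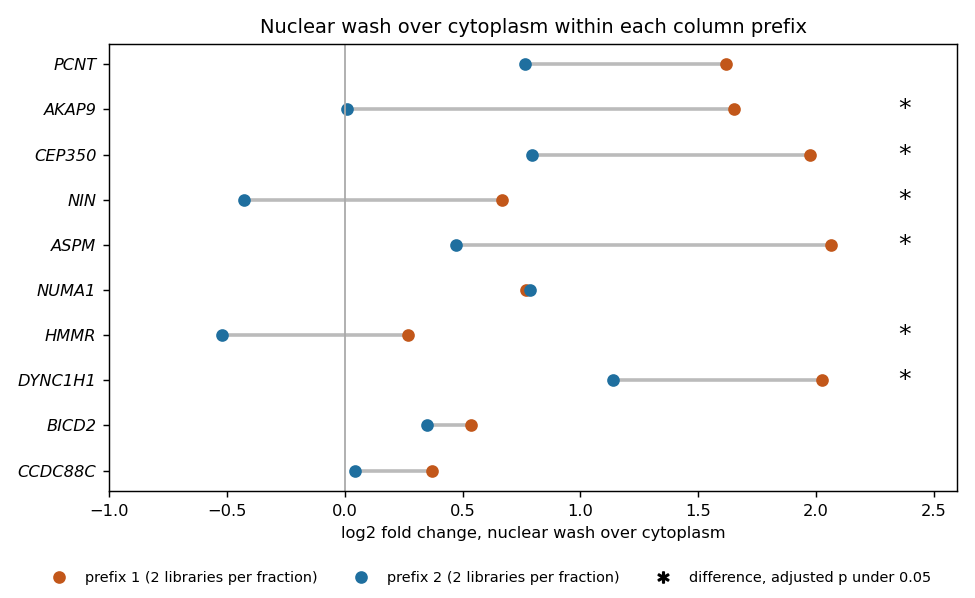
Log2 fold change of nuclear wash over cytoplasm in each prefix (2 libraries per fraction and prefix); the line joins both values of a gene, and an asterisk marks a difference called by the interaction term. NUMA1 has 0.77 within prefix 1 and 0.79 within prefix 2, while AKAP9 has 1.65 within prefix 1 and 0.01 within prefix 2.

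The nucleus against the cytoplasm also differed between prefixes for AKAP9 (3.62 within prefix 1 and 2.64 within prefix 2), ASPM (3.44 and 2.67) and DYNC1H1 (1.00 and -0.50), against 0.408% of all genes. For wash against nucleus the difference was called for ASPM alone, at -1.38 within prefix 1 and -2.20 within prefix 2, against 0.157% of all genes. Other values moved with the prefix. MALAT1, a noncoding RNA retained in the nucleus, took 1.73 and 1.41% of the exon counts in wash replicates 1 and 2, and 0.411 and 0.386% in replicates 3 and 4. The intronic share of all gene-body counts was 21.0 and 25.0% in wash replicates 1 and 2, and 17.6 and 16.9% in replicates 3 and 4. Their part in the differences between prefixes was not tested.

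The undepleted nuclear wash was set against the depleted one in a separate fit of the 7 wash libraries and 11627 genes, with its own scaling, so its CPM values stand only beside one another. CCDC88C and NUMA1 were higher without depletion, 2 of 10 members against 7.75% of all genes, and 0 were lower, against 3.35%. CCDC88C had 28.3, 41.4 and 43.6 CPM in the undepleted wash (25, 58 and 40 exon counts) and 23.1, 20.4, 14.4 and 16.5 CPM in the depleted wash. Its undepleted libraries all lay above the depleted ones, with a log2 fold change of 1.05 ± 0.227 (adjusted p = 0.0144, edgeR). NUMA1 had 353, 369 and 514 CPM in the undepleted wash and 282, 165, 214 and 235 CPM in the depleted wash, again without overlap (0.88 ± 0.207, adjusted p = 0.0206). Both calls are lost without undepleted replicate 2 or 3, and that of NUMA1 also without depleted wash replicate 3.

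PCNT had 315, 267 and 330.5 CPM in the undepleted wash and 270.5, 132, 146 and 160.4 CPM in the depleted wash, a difference of 0.78 ± 0.237 that was not called (adjusted p = 0.0559, edgeR) but was called without depleted wash replicate 1 (1.05) and by DESeq2. DYNC1H1, the member with the highest CPM in both washes, had 1309, 896 and 1060.2 CPM in the undepleted wash. In the depleted wash it had 1362, 1262, 969 and 1057 CPM. Its log2 fold change of undepleted over depleted wash was -0.10 ± 0.186 (adjusted p = 0.777, edgeR). Undepleted replicates 1, 2 and 3 carry the prefixes 1B, 2B and 2C, those of depleted replicates 2, 3 and 4. Depleted replicate 1 has no undepleted partner and was left out of the fit with that prefix as a replicate block. In that fit 4 members were called higher without depletion, against 16.5% of 11744 genes, and 2 lower, against 15.7%: PCNT was called at 1.05, AKAP9 at 0.32, ASPM at -0.34 and HMMR at -0.47. Without depleted replicate 1 and with no block, 3 members were called higher and 0 lower, and AKAP9 had 0.30, ASPM -0.36 and HMMR -0.47, none of them called (adjusted p = 0.612, 0.702 and 0.237, edgeR). Without depletion, ASPM had 407 CPM in the only undepleted library of prefix 1, and 126 and 133 CPM in those of prefix 2. AKAP9 had 179 CPM and then 87.1 and 85.1 CPM. The difference between prefixes was not tested in these libraries. They share their prefixes with depleted replicates 2, 3 and 4 and may come from the same washes, so they are no separate observation of it.

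Intronic reads were taken as gene-body counts minus exon counts and given as a share of the gene-body counts, for 10016 genes with at least 20 gene-body counts in every depleted library, the 10 members included. In the nucleus the share was higher than in the cytoplasm for all 10 members with no overlap between libraries, as for 86.4% of those genes, and lower for 0 members, against 2.14%. In the wash it was lower than in the nucleus without overlap for 9 members, against 82.1%, and AKAP9 was the exception. The exact permutation test, two-sided, gave each of these differences p = 0.0286, a value that 4 against 4 libraries cannot go below, and an adjusted p of 0.039 over the 30 tests of members and contrasts. Nuclear shares spanned 17.8 ± 3.71% for DYNC1H1 and 19.0 ± 4.06% for ASPM to 60.5 ± 2.15% for NIN and 76.5 ± 2.22% for CCDC88C (SD, n = 4). Annotated exons cover 36852 of 91934 bases of DYNC1H1 and 12426 of 146522 bases of CCDC88C. The share is therefore not comparable between genes as a measure of unspliced RNA.

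**Figure D4:**
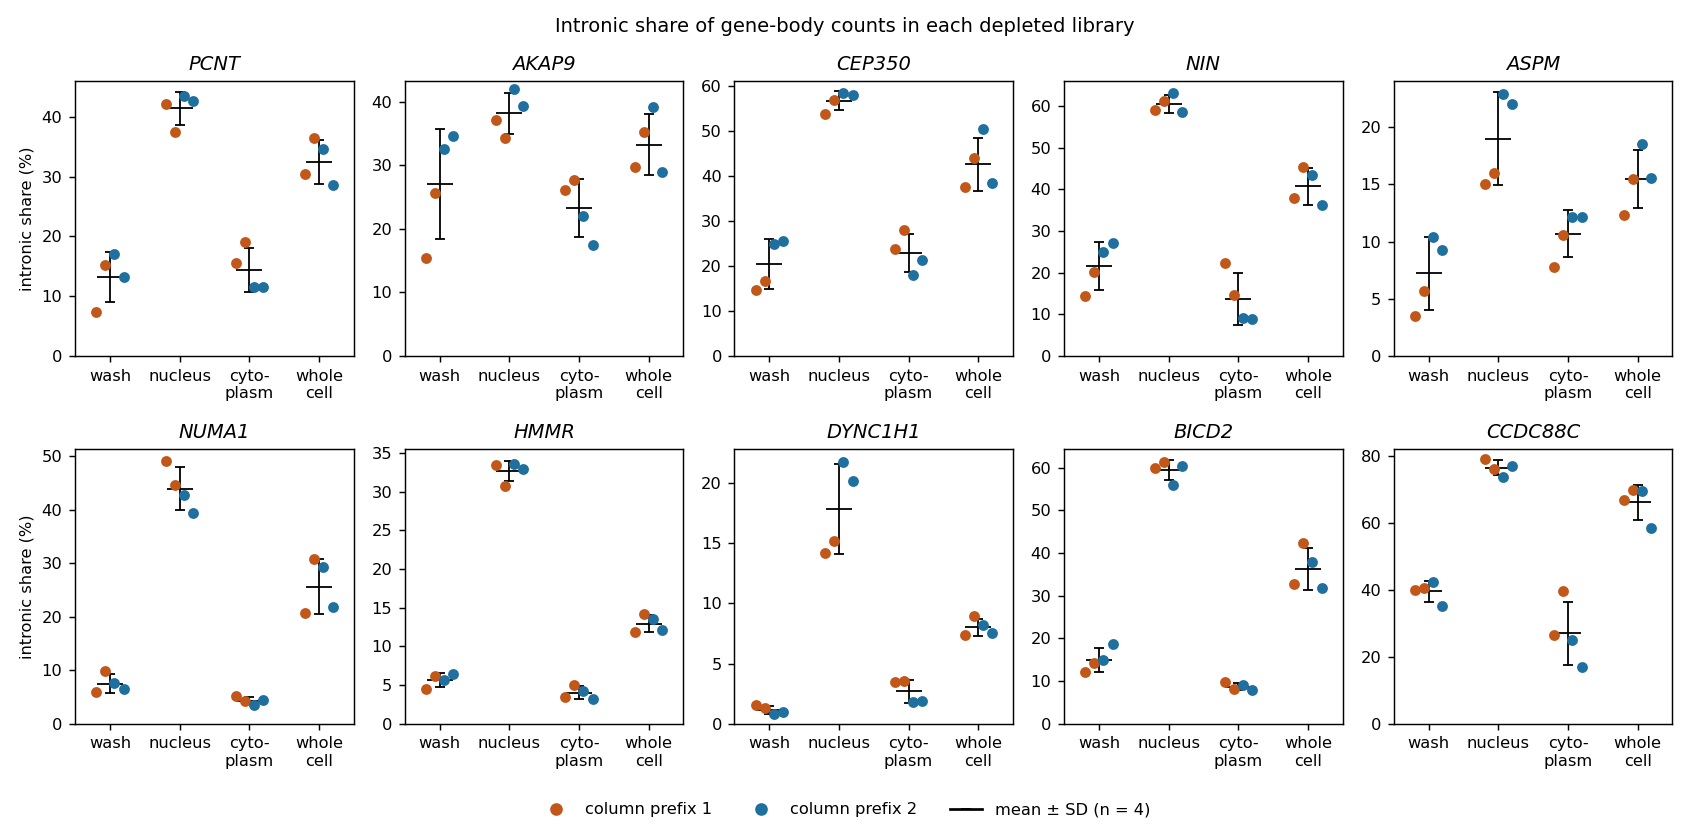
Intronic share of gene-body counts in percent (linear axis from 0, a separate scale for each gene) in each depleted library, with the mean ± SD (n = 4) and libraries coloured by column prefix. DYNC1H1 has 0.773 to 1.55% in the wash and 14.2 to 21.8% in the nucleus, and AKAP9 is the member whose wash and nuclear libraries overlap.

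Between wash and cytoplasm, DYNC1H1 was the member whose intronic share was lower in the wash without overlap. Its share was 1.55, 1.29, 0.773 and 0.969% in the wash, and 3.45, 3.58, 1.83 and 1.92% in the cytoplasm. All wash libraries lay below all cytoplasmic ones, a difference of -1.55 percentage points (exact permutation p = 0.0286, adjusted 0.039) in a direction that 1.6% of the 10016 genes showed without overlap. NUMA1 and BICD2 went the other way, as 61% of genes did, with 7.47 ± 1.79% in the wash and 4.32 ± 0.647% in the cytoplasm for NUMA1 and 14.98 ± 2.75% in the wash and 8.70 ± 0.858% in the cytoplasm for BICD2. The remaining 7 overlapped. AKAP9 had 15.3, 25.7, 32.7 and 34.6% in the wash, 37.1, 34.3, 41.9 and 39.3% in the nucleus and 26.2, 27.6, 22.0 and 17.5% in the cytoplasm, so that wash replicate 4 reached the nuclear range and replicate 1 lay below every cytoplasmic library. AKAP9, CEP350, NIN, ASPM and BICD2 all had lower intronic shares in wash replicates 1 and 2 than in replicates 3 and 4. Their exon CPM were lower in wash replicates 3 and 4. DYNC1H1 also had lower exon CPM there, but its intronic share went the other way. The shares of PCNT, NUMA1, HMMR and CCDC88C did not separate these replicates.

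The within-prefix values differ for this measure. In prefix 1 the wash share lay below the cytoplasmic one without overlap for 5 members, against 5.06% of the 10016 genes, and above it for NUMA1, BICD2 and CCDC88C, against 74.7%. In prefix 2 it was higher for 8 members, against 74.7% of genes there too, and lower for 2, against 5.46%. Paired by replicate number, the wash was higher in every pair for 4 members, against 70.8% of genes, and lower in every pair for 2, against 3.26%. DYNC1H1 and ASPM were lower in the wash in both prefixes.

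Other genes of the complexes that these proteins work with were read from the same fit. For the counts below, 22.8% of all tested genes were higher in the wash than in the cytoplasm and 21.4% lower. The complexes hold few genes, and their difference from the members was not tested. Of the other dynein-1 subunits, 8 of 10 were tested, and in the wash against the cytoplasm 0 were higher and 3 lower. Their log2 fold changes ranged from -1.03 to 0.21 with a median of -0.14, beside 1.57 for the heavy chain DYNC1H1. Of 12 dynactin subunits, 1 was higher and 7 lower (median -0.51), the higher one being DCTN1, the large p150 subunit that binds dynein and microtubules, at 0.33 ± 0.128 (adjusted p = 0.0417, edgeR). Of 9 gamma-tubulin ring genes, 1 was higher, TUBGCP6, at 0.81 (adjusted p = 0.000644), and 5 were lower (median -0.43). The 8 genes of augmin, which branches spindle microtubules, had 0 higher and 3 lower (median -0.32). These complexes overlap with the lists below.

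Of 64 other centrosome and spindle pole genes, all tested, 9 were higher in the wash than in the cytoplasm and 21 lower. Their median log2 fold change was -0.06. Of all tested genes, 22.8% were higher and 21.4% lower. CEP250, which links the centrioles of a pair, was higher by 1.06 ± 0.212 (adjusted p = 0.00039, edgeR), and TPX2, a spindle assembly factor, by 1.00 ± 0.124 (adjusted p = 1.75e-06). MZT1, a small subunit of the gamma-tubulin ring, was lower with -1.65 ± 0.146 (adjusted p = 2e-08). Of 39 tested among 45 other dynein, dynactin and adaptor genes, 2 were higher, DCTN1 and the kinesin and dynein adaptor MAPK8IP3 (0.94 ± 0.165, adjusted p = 0.000105), and 14 were lower, with DYNLRB1, a dynein light chain, at -0.86 (adjusted p = 0.000679, edgeR).

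The golgin list holds golgins, long coiled-coil tethers of the Golgi, and related genes such as EEA1, RABEP1 and ERC1, which are not golgins. It was taken as a list of other, mostly coiled-coil, proteins. Of its 20 genes, 3 were higher in the wash than in the cytoplasm (22.8% of all genes) and 4 lower (21.4%). The median was -0.06, with GOLGA3 at 0.44, GOLGA1 at 0.43 and GOLGA5 at -0.81. Within prefix 1, 5 genes of the golgin list were higher (19.3% of all genes) and 1 lower (20.3%). Within prefix 2, 2 were higher (18.8%) and 10 lower (19%). The list of spectrins and large actin scaffolds, most of which form the cytoskeleton under membranes and along actin, had 28 tested genes. Of these, 23 were higher in the wash (22.8% of all genes) and 1 lower (21.4%), with a median of 0.86, close to the members' 0.87. SPTBN1, a beta spectrin, was higher by 4.12 ± 0.171 (adjusted p = 3.95e-13, edgeR) and IQGAP1, an actin-binding scaffold, by 3.93 ± 0.148 (adjusted p = 8.55e-14), each more than any member. DBNL was lower at -0.42 (adjusted p = 0.0493). HSPA5, the chaperone of the endoplasmic reticulum, was higher in the wash by 2.05 ± 0.163 (adjusted p = 5.37e-09, edgeR).

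The members differ in length from most genes. Of the 10, 8 have a coding length of at least 6000 bases in GENCODE 29, up to 13941 bases for DYNC1H1, and BICD2 and HMMR have 2568 and 2178 bases. Among all 318 tested protein-coding genes of at least 6000 coding bases, 51.3% were higher in the wash than in the cytoplasm and the median log2 fold change was 0.54. Among 3457 genes under 1000 coding bases, 12.2% were higher and the median was -0.42. Across 11293 genes, coding length and this fold change had a Spearman correlation of 0.36, and across the 10 members one of 0.85, as a description over genes measured in the same libraries. DYNC1H1, ASPM, CEP350, PCNT, AKAP9 and NUMA1 lay above the median of their length class, and NIN and CCDC88C below it. The part of coding length in the members' values was not tested.

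**Figure D5:**
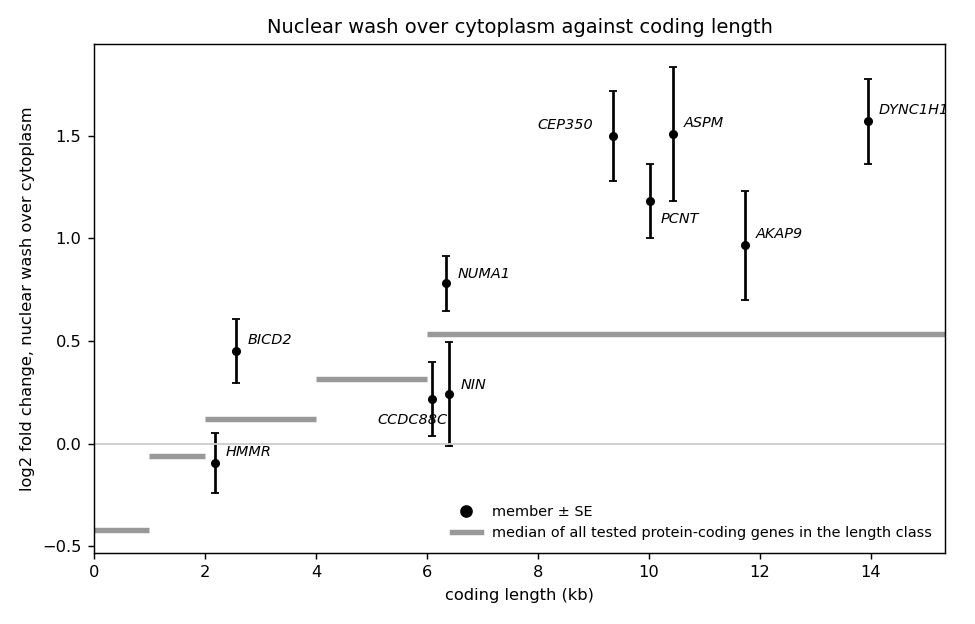
Log2 fold change of nuclear wash over cytoplasm (edgeR, ± SE) of the 10 members against coding length in kb; grey lines are medians of all tested protein-coding genes in 5 length classes. The class of at least 6000 bases has a median of 0.54, and members of that class run from 0.22 for CCDC88C to 1.57 for DYNC1H1.

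Across the 16 depleted libraries, the members' patterns were compared by the root mean square difference of log2 CPM, centred per gene. They were set against one another and against the 9003 other genes averaging 10 CPM or more. The closest pairs of members were AKAP9 and ASPM, at 0.317 on the log2 scale, and BICD2 and HMMR, at 0.319. AKAP9 was the nearest of all these genes to ASPM. ASPM had only rank 12 from AKAP9, whose nearest gene was PNISR, at 0.21. AKAP9 and ASPM also lay farthest from the members' median pattern, at 1.02 and 0.94, and CCDC88C lay nearest, at 0.25. The genes closest to the median pattern outside the list were TTF1, an RNA polymerase I termination factor, GIGYF2, a translational repressor, PRRC2C, BUB1B, a spindle checkpoint kinase, and FGD6, at distances of 0.12 to 0.16. The nearest gene to HMMR was HMMR-AS1, at 0.10, and the nearest to DYNC1H1 was AL118558.1, at 0.21. Each overlaps exons of that member on the opposite strand, so without the strand setting their reads cannot be told apart.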

How the data were processed

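The authors deposited raw read counts per gene over exons and over whole gene bodies, with no normalization and 1 column per library. Tools named in the submitters' processing notes are featureCounts 1.6.2, STAR 2.7.0a and cutadapt 2.5, with hg38 as the build. What annotation release and strand setting were used, and how ambiguous reads were treated, is not given in the sources used here. Per the labels' protocols, stranded total RNA libraries were made from Trizol LS extracts with yeast spike-ins, and rRNA depletion was left out for the undepleted wash. Positions and lengths come from GENCODE 29 on GRCh38. Every count column matched 1 library, and 0 were unused.

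Exon counts of the 16 depleted libraries were fitted together with edgeR 4.0.16 in R 4.3.3 (filterByExpr, TMM, quasi-likelihood test, Benjamini-Hochberg over 15940 genes, called at 0.05), with the 11 yeast transcripts left out. The 7 wash libraries were fitted apart (11627 genes). The SE is the absolute log2 fold change over the square root of F. The fitting step was run on simulated counts for wash against cytoplasm only, with most genes unchanged and no difference between prefixes. It therefore does not cover the wide shifts between fractions seen here. The joint test, the replicate block and the fit of the undepleted wash were not simulated. Intronic shares were compared with exact permutation tests in scipy 1.17.1. Library depth limits precision, and counting covers no PCR duplication. Samples with the same column prefix deviated together in every contrast (correlations of 0.10 to 0.38). Correlations between samples of unlike prefix were not computed. These values therefore cannot tell pairing by replicate number from the broader differences between prefixes described above. The replicate block and the pairs by replicate number take their pairing from the column labels of the depleted groups, and that pairing was not tested. Replicates differed by more than counting noise (chi-square per degree of freedom of 1.18 to 27.3).

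The members and lists were chosen with earlier results of these data known. Genes named beside the members are, per list, the 2 called genes with the largest positive and the 1 with the largest negative fold change of wash over cytoplasm if they averaged 5 CPM or more, and landmarks (MALAT1, GAPDH and HSPA5). The 5 genes nearest to the members' median pattern complete the rule. TUBGCP6 was named after its value was seen. GAPDH was lower in the wash than in cytoplasm libraries (log2 fold change -0.88 ± 0.119, adjusted p = 5.69e-06, edgeR). Alternatives were RLE and no composition factors, spike-in sizes, DESeq2 1.42.0, no filter, gene-body counts, leaving out mitochondrial and rRNA genes, each prefix alone, the replicate block, only the groups compared, and leaving out each library; the values within prefixes for lists and the interaction were added after seeing the data.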

Additional observations from a re-analysis of the deposited data

Results flagged for a closer look

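In the wash against the cytoplasm, the log2 fold change within prefix 1 exceeded that within prefix 2 by a called difference for 6 members: 1.65 for AKAP9, 1.59 for ASPM, 1.18 for CEP350, 1.10 for NIN, 0.89 for DYNC1H1 and 0.80 for HMMR. The call of NIN was just under the threshold (adjusted p = 0.0496, edgeR). In the nucleus against the cytoplasm the difference was 1.52 for DYNC1H1, 0.99 for AKAP9 and 0.78 for ASPM, and in the wash against the nucleus it was 0.81 for ASPM. All 10 are interaction terms of edgeR among 30 tested for the members, with p-values adjusted over all 15940 genes. Each prefix holds 2 libraries per fraction, and what the prefix marks is not given in the sources used here.

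A single library stood apart from the other 3 of its group in 2 of the 80 sets of 4 libraries examined. NUMA1 had 172 CPM in nucleus replicate 1, below 208 to 213 CPM in the other nuclear libraries. AKAP9 had 112 CPM in cytoplasm replicate 4, above 76.9 to 81.2 CPM in the other cytoplasmic libraries. Chance gives about 1 in 20 such sets.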

How the results depend on the processing

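Spike-in library sizes moved the all-gene median of the log2 fold change to -3.10 for wash against cytoplasm, -2.47 for wash against nucleus, -0.60 for nucleus against cytoplasm, -4.51, -1.83 and -1.24 for wash, nucleus and cytoplasm against whole cells, and -0.26 for undepleted against depleted wash. The amount of spike-in per sample is not given, so these values are no amounts of RNA. Under that scaling all 10 members were lower and 0 higher for wash against cytoplasm (93.3% of all genes lower) and wash against nucleus (93.5%). The same held for wash (100%), nucleus (86.4%) and cytoplasm (92.2%) against whole cells, and for the wash against both (86.6%). In the undepleted wash 0 were higher (2.84%). Counts this near the shares of all genes are no result about the members. For wash against cytoplasm the values were -1.96 for PCNT, -1.56 for ASPM, -2.41 for NUMA1, -1.59 for CEP350, -2.69 for BICD2, -2.93 for CCDC88C, -2.86 for NIN, -2.11 for AKAP9 and -1.55 for DYNC1H1, which relative to the median of all genes are 1.14, 1.54, 0.70, 1.51, 0.41, 0.17, 0.24, 0.99 and 1.55. For wash against nucleus they were -1.94 for NUMA1 (also in the joint test), -1.67 for BICD2 and -1.21 for DYNC1H1 (each also in the joint test) and -2.17 for HMMR, or 0.54, 0.80, 1.26 and 0.30 relative to the median. For nucleus against cytoplasm NUMA1 had -0.47 and CCDC88C -0.18, or 0.13 and 0.42 relative to it. Against whole cells, the wash had -3.74 for NUMA1, -3.80 for BICD2 and -3.23 for DYNC1H1, and the nucleus -1.30 for PCNT, -0.71 for ASPM, -1.27 for CEP350 and -0.79 for AKAP9. Of the lists, wash against cytoplasm then had 0 higher and 63 lower other centrosome genes, and 0 and 39 dynein genes. The golgin list had 0 and 20, and the spectrins and scaffolds had 3 and 23. Of all genes, 0.0188% were higher and 93.3% lower.

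Without a composition factor the median of all genes was -0.61 for wash against nucleus and 0.64 for nucleus against cytoplasm. NUMA1 (-0.070) and HMMR (-0.35) then changed sign for wash against nucleus, BICD2 (0.24) and HMMR (0.21) for nucleus against cytoplasm, and HMMR (0.022) for nucleus against whole cell. For wash against nucleus 1 member was higher (17.9% of all genes) and 7 lower (52.8%). For nucleus against cytoplasm 8 were higher (53.6%) and 0 lower (23.5%). The joint test had 0 higher (2.5%), and the nucleus against whole cells 0 lower (18.2%). In the undepleted wash 0 were higher (3.45%) and 1 lower (30.9%). With RLE factors, DESeq2 or without mitochondrial and rRNA genes, 0 members were lower in the nucleus than in cytoplasm or whole cells. In these settings, in that order, 34.2, 33.7 and 36.2% of all genes were lower in the nucleus than in the cytoplasm. Against whole cells, 24, 23.6 and 25.5% were lower in the nucleus. With gene-body counts, NUMA1 (-0.56) and DYNC1H1 (-0.97) were lower in the nucleus than in the cytoplasm. In that contrast 4 members were lower (40.8% of all genes). For wash against cytoplasm 1 member was lower (24.7%), as were 7 genes of the golgin list. Against whole cells, 5 members were higher in the wash (25.5%), and 1 was higher (18.8%) and 2 lower (25.3%) in the nucleus. In the cytoplasm 3 members were higher than in whole cells (37.8%). No low-count filter gave 2 members lower in the undepleted wash (3.17% of all genes). The fit of only the groups compared gave 1 lower for nucleus against cytoplasm (38%).

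In prefix 2, 1 member was lower for wash against cytoplasm (19% of all genes), 4 for wash against nucleus (33.2%), 5 for wash (19.8%) and 2 for nucleus (25.8%) against whole cells, and DYNC1H1 was at -0.50 for nucleus against cytoplasm. In prefix 1, 1 member was lower for nucleus against cytoplasm (35.6%). For wash against cytoplasm in prefix 1, 5 genes of the golgin list were higher (19.3%) and 1 lower (20.3%), and 0 scaffolds were lower. In prefix 2, 10 genes of the golgin list were lower for wash against cytoplasm (19%). For the intronic share of wash against cytoplasm, prefix 1 gave 5 lower, and prefix 2 gave 8 higher and 2 lower. The replicate block gave 2 lower for wash against whole cell, with depleted replicate 1 left out 4 higher and 2 lower for the undepleted wash, AKAP9 there at 0.32 (0.30, not called, without that library and with no block), and 4 higher and 2 lower for the intronic share of wash against cytoplasm; with the calls of BICD2 in the joint test, of ASPM for wash against whole cell and of CEP350 and HMMR for wash against nucleus given above, these are all the calls it changed among the results reported.

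Leaving out 1 library at a time gave 6 to 7 members higher and 0 lower for wash against cytoplasm, 3 to 4 and 2 to 4 for wash against nucleus, 4 to 6 and 0 to 2 for nucleus against cytoplasm, 3 and 1 for wash, 3 to 4 and 0 to 1 for nucleus, and 0 and 4 for cytoplasm against whole cells, 2 to 3 and 0 for the joint test, and 0 to 3 and 0 for the undepleted wash. With no library left out, the shares of all genes higher and lower were 22.8 and 21.4% for wash against cytoplasm. They were 36.7 and 35.4% for wash against nucleus, and 39.3 and 37.5% for nucleus against cytoplasm. Against whole cells they were 14.6 and 19.7% for wash, 25.9 and 29% for nucleus, and 22.3 and 27.6% for cytoplasm. The joint test had 5.6 and 1.17%, and the undepleted wash 7.75 and 3.35%. For intronic shares, leaving out 1 library gave 2 to 4 higher and 1 to 2 lower for wash against cytoplasm. It gave 0 and 9 to 10 for wash against nucleus, and 10 and 0 for nucleus against cytoplasm. With no library left out, 61 and 1.6%, 1.55 and 82.1%, and 86.4 and 2.14% of the 10016 genes did so, in that order. Counts near the shares of all genes are no result about the members. A minimum of 100 gene-body counts per library left out NIN and changed no other count. The causes of these changes were not tested.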
